A study of Mus musculus with 15 samples.

Results

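Polyamines are made, held in check and used through 10 genes examined here, picked by symbol from a table of 23420 mouse genes: Odc1, Amd1, Srm, Sms, Oaz1, Oaz2, Azin1, Sat1, Dhps and Dohh. All 10 are listed in the table and passed the filter on low values. RNA came from 100 sorted lymph node cells per library, with 3 libraries in each of 5 groups, after the transfer of CD45.1+ B1-8hi B cells, whose knocked-in antigen receptor binds the hapten NP, into C57BL6 hosts given NP-CGG in complete Freund's adjuvant. The cells were taken on day 12, and the hosts also kept their own B cells, which the CD45.1 gate set aside. The question the groups address is how light zone cells that lean towards the plasma cell fate differ from their neighbours.

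GC-PB are plasmablasts (CD45.1+ CD138hi CD44hi tdTomato+) that descend from germinal centre cells. Their donors were B1-8hi (KI/+) and carried an S1pr2-ERT2cre transgene with a ROSA-Ai14 (KI/+) reporter, so that tamoxifen on days 6, 7 and 8 marked cells in which S1pr2 was active. The other 4 groups came from B1-8hi (KI/+) donors with a Bcl6-YFP (KI/+) reporter, had no tamoxifen named in the labels, and were sorted as B220+ CD38lo GL7hi germinal centre cells. Fraction 1 is the Bcl6lo CD69hi light zone group, Fraction 2 the Bcl6hi CD69hi light zone group and Fraction 3 the Bcl6hi CD69lo light zone group, each CXCR4lo CD86hi. DZ is the dark zone group, CXCR4hi CD86lo. Replicates were prepared as separate libraries. Nothing in the labels tells whether separate animals stand behind them, so a p-value here reflects spread among libraries, which may be technical.

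Polyamines are small positively charged molecules that bind nucleic acids and that dividing cells need. Ornithine decarboxylase (Odc1) makes putrescine, S-adenosylmethionine decarboxylase (Amd1) supplies the aminopropyl donor, and spermidine synthase (Srm) and spermine synthase (Sms) extend the chain to spermidine and then spermine. Antizymes (Oaz1, Oaz2) bind ornithine decarboxylase and send it to the proteasome, the antizyme inhibitor (Azin1) takes antizyme away from it, and Sat1 acetylates spermidine and spermine for breakdown or export. Deoxyhypusine synthase (Dhps) and deoxyhypusine hydroxylase (Dohh) use spermidine to build hypusine, a modified lysine of the translation factor eIF5A, which helps ribosomes through proline-rich stretches.

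Antizyme mRNA is read only when the ribosome slips forward by a base at a stop codon, and it slips more often when polyamines are plentiful. That site is shown because it is the textbook way in which polyamine level sets antizyme protein, a step that mRNA levels do not measure. The following stretches of 30 bases come from GENCODE M21 transcripts of Oaz1 (chromosome 10) and Oaz2 (chromosome 9), with the last codon of the upstream frame, the stop codon and the next base in capitals.
Oaz1 site: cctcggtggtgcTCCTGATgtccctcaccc
Oaz2 site: cctctgtggtgcTCCTGATgcccctcaccc
The letters in capitals are the same in both genes.

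The promoters of Odc1 and Sms are shown because Odc1 starts the pathway and is a textbook target of Myc, which binds the E-box CACGTG, and because Sms changed most of the 10 genes. Windows run from 250 bases before to 50 bases after a gene's start in RefSeq GRCm38.p6, and 8 of the 10 genes had one (Srm and Azin1 had none). The Odc1 window, chr12:17544623-17544922 on the plus strand, has its GC boxes (GGGCGG, either strand) in capitals. The Sms window with the farther upstream start, chrX:157492238-157492537 on the minus strand, has its E-box in capitals.
Odc1 window: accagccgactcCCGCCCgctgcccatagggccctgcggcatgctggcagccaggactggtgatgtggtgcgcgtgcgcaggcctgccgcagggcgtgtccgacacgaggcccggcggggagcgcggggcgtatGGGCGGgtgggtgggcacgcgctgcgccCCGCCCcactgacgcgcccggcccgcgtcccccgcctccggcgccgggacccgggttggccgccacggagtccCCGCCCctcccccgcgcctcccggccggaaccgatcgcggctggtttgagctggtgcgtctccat
Sms window: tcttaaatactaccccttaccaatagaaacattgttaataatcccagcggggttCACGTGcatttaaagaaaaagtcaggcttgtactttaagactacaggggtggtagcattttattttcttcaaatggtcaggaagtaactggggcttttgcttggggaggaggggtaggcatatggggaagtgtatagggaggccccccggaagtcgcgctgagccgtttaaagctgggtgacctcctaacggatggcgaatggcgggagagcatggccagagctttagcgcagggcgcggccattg
E-boxes on either strand were found in windows of 2 of the 8 genes, Dohh and Sms. Of all 32851 windows of the same length, 7.15% held an E-box. The gene count takes any window of a gene and the share takes single windows, so they are not alike. The other Sms window, chrX:157491319-157491618, held 0 E-boxes and 4 GC boxes. The Odc1 window held 4 GC boxes and no CACGTG, and 35.7% of all windows held a GC box. Bases outside the windows, which include most of the Odc1 gene, were not searched for CACGTG. These matches describe letters and not binding.

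Library totals as deposited ran from 27942 to 115090, and the total of Fraction 1 was 2.75 times that of Fraction 2. In units of the most frequent value above 0 in each library, totals averaged 348639 in Fraction 1 and 350126 in Fraction 2. That value was 0.305 to 0.330 in Fraction 1, 0.356 to 0.362 in GC-PB and 0.105 to 0.139 in the other 9 libraries. What sets it is not given in the sources used here, so RNA per cell and the scale of the deposited values cannot be told apart. In the Fraction 1 and GC-PB libraries Xist, the transcript of the inactive X chromosome, lay between 8.94 and 14.4, and it was listed at 0 in the other 9 libraries, which carried the Y-linked gene Ddx3y at 3.91 to 6.21 (at most 0.0406 in Fraction 1 and 0 in GC-PB). Fraction 1 against Fraction 2 crosses that divide with every library, so the origin of the libraries and the fraction cannot be told apart there. GC-PB and Fraction 1 differ in donor genotype and in tamoxifen, which cannot be told apart from cell type in that comparison. Of the genes behind the gates, Sdc1 (CD138) averaged 13.6 in GC-PB and at most 0.0392 in any other group, and Bcl6 averaged 0 in GC-PB, 3.97 in Fraction 1 and 15.5 or more in Fraction 2, Fraction 3 and DZ. Cd69 mRNA averaged 7.91 ± 7.08 in GC-PB, 2.65 in Fraction 1, 2.91 in Fraction 2, 2.17 in Fraction 3 and 1.92 in DZ, and the CD69hi and CD69lo light zone libraries overlapped in it. Of 9 T cell genes 8 are in the table, and their summed level was 0 to 1.24 in GC-PB, 3.29 to 5.66 in Fraction 1, 4.596 to 5.88 in Fraction 2, 3.76 to 4.91 in Fraction 3 and 1.45 to 2.24 in DZ. Lck made up most of that sum, Cd3e, Cd4 and Il7r were listed at 0 in all 15 libraries, and Cd3d, Cd3g, Cd8a and Thy1 reached at most 0.413. The part of these genes in the results was not tested. The summed level of 7 proliferation genes was 28.4 to 52.4 in GC-PB, 64.4 to 67.4 in Fraction 1, 120 to 126 in Fraction 2, 118 to 139 in Fraction 3 and 106 to 137 in DZ.

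Levels below are the authors' signal after each library was set to the same total (Rn45s, a ribosomal RNA precursor, left out of the total), given as mean ± SD over n = 3 libraries, and changes are log2 fold changes ± SE on the log2(level + 1) scale. A gene was called when limma gave an adjusted p under 0.05 over all 11190 tested genes. Setting totals equal removes any difference in RNA per cell or deposited scale, so that each change is relative to the rest of the RNA. In the deposited values the median change over all tested genes was 0.64 in Fraction 1 against Fraction 2, 0.15 in Fraction 2 against Fraction 3, -0.02 in Fraction 3 against DZ, 0.13 in Fraction 2 against DZ and -0.42 in GC-PB against Fraction 1. In these bulk samples, fewer cells with a transcript and less transcript per cell cannot be told apart.

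The 10 genes did not move as a block. Plasmablasts held less Sms, Amd1 and Odc1 and more Azin1 than Fraction 1, with 1 gene higher and 3 lower of 10, where 36.3% of all tested genes were called (14.1% higher, 22.3% lower). Fraction 1 held more Srm, Odc1 and Amd1 and less Oaz1 than Fraction 2, with 3 genes higher and 1 lower, where 9.03% of all tested genes were called (3.79% higher, 5.25% lower). Srm alone was called in Fraction 2 against Fraction 3 (0.688% of all tested genes called, 0.438% higher and 0.25% lower). Odc1 and Srm were higher and Oaz1 and Sat1 lower in Fraction 2 than in DZ (3.5% called, 1.66% higher and 1.84% lower). In Fraction 3 against DZ limma called 0 of the 10 genes, at a background of 1.05% (0.572% higher, 0.483% lower), and Oaz1 alone had an unadjusted p under 0.05 (0.0335). With libraries scaled by median ratios (each library divided by its median ratio to the mean over libraries), GC-PB against Fraction 1 had 2 of the 10 genes higher (Azin1 and Oaz1) and 2 lower (Sms and Amd1), with 2085 of all genes higher and 1961 lower, against 1573 and 2491 at equal totals. Fraction 1 against Fraction 2 then had 3 of the 10 higher and 0 lower, with 521 of all genes higher and 392 lower, against 424 and 587 at equal totals. The share of higher calls thus depends on the scaling in both comparisons. These comparisons share libraries, Fraction 2 in 3 of them and Fraction 1 in 2, so they are not separate evidence.

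The median change of the 10 genes was -0.42 in GC-PB against Fraction 1, against -0.06 over all tested genes, and 0.38 in Fraction 1 against Fraction 2, against -0.04 over all. It was -0.05, -0.04 and -0.02 in Fraction 2 against Fraction 3, Fraction 3 against DZ and Fraction 2 against DZ, against 0.00, 0.00 and 0.01 over all. As deposited, 0 of the 10 were called higher and 8 lower in GC-PB against Fraction 1 (57% of all tested genes called), and 9 higher and 0 lower in Fraction 1 against Fraction 2 (55.3% called). On that scale 3 were called higher and 0 lower in Fraction 2 against Fraction 3 (2.69% called), 0 in Fraction 3 against DZ (0.241%), and 2 higher and 0 lower in Fraction 2 against DZ (3.45%). Over all genes the deposited calls were 1250 higher and 5130 lower in GC-PB against Fraction 1, 6120 and 63 in Fraction 1 against Fraction 2, 299 and 2 in Fraction 2 against Fraction 3, and 339 and 47 in Fraction 2 against DZ. The libraries compared did not overlap for 7 of the 10 genes in GC-PB against Fraction 1 (42.9% of all tested genes), 7 in Fraction 1 against Fraction 2 (28.2%), 6 in Fraction 2 against Fraction 3 (17%), 1 in Fraction 3 against DZ (14.3%) and 5 in Fraction 2 against DZ (20.4%).

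**Figure D1:**
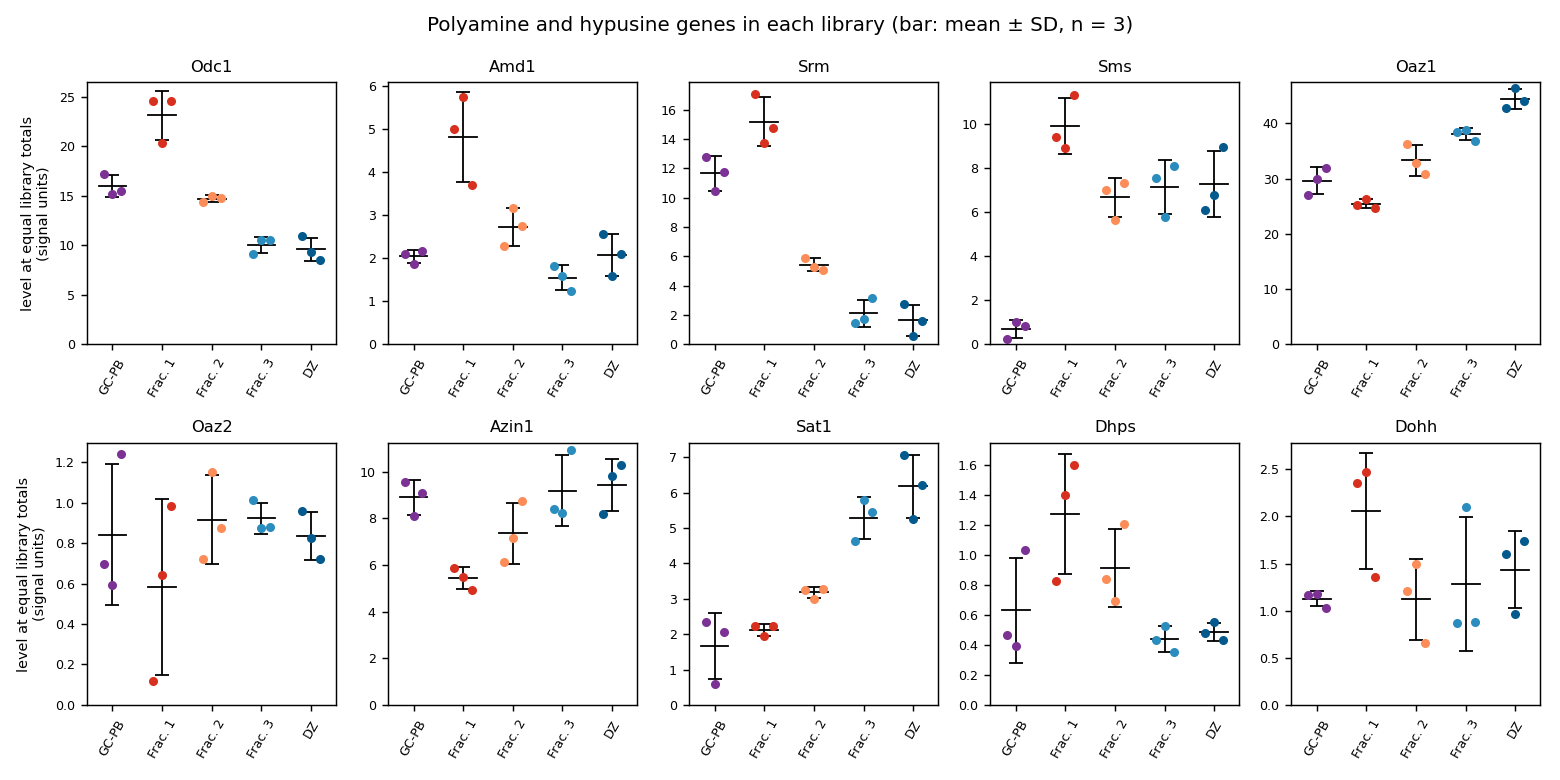
Level of each of the 10 genes at equal library totals (vertical axis, signal units from 0) in GC-PB, Fractions 1 to 3 and DZ, with a point per library and bars for mean ± SD over 3 libraries. Odc1 and Srm are highest in Fraction 1 (means 23.2 and 15.2), Oaz1 and Sat1 are highest in DZ (44.4 and 6.17), and Sms stands near 0 only in GC-PB (0.681).

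Ornithine decarboxylase (Odc1, chr12:17544794-17551505 on mm10), the enzyme that starts the pathway, was 17.2, 15.2 and 15.5 in the GC-PB libraries, 24.6, 20.3 and 24.6 in Fraction 1, 14.3, 14.99 and 14.8 in Fraction 2, 9.12, 10.5 and 10.6 in Fraction 3, and 10.9, 9.32 and 8.53 in DZ. Every Fraction 1 library lay above every other library, GC-PB and Fraction 2 came next without overlap, and Fraction 3 and DZ overlapped at the low end. Odc1 rose 1.58-fold in Fraction 1 over Fraction 2 (0.62 ± 0.12, adjusted p = 0.00218) and kept this call when any library was left out. It rose in Fraction 2 over DZ as well (0.57 ± 0.12, adjusted p = 0.00804), a call lost without DZ replicate 3 (0.50, adjusted p = 0.0504). The change in Fraction 2 over Fraction 3 was of like size and just missed the threshold (0.51 ± 0.12, adjusted p = 0.0542).

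In plasmablasts Odc1 fell to 15.96 ± 1.11, against 23.2 ± 2.46 in Fraction 1 (-0.51 ± 0.12, adjusted p = 0.0019). With libraries scaled by median ratios that change was -0.23 and no longer called (adjusted p = 0.152). The Odc1 change between GC-PB and Fraction 2, whose means were 15.96 and 14.7, was not tested.

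S-adenosylmethionine decarboxylase (Amd1, chr10:40287458-40302186), which makes the aminopropyl donor, was 2.10, 1.87 and 2.17 in GC-PB, 5.0, 5.75 and 3.69 in Fraction 1, 2.29, 3.17 and 2.74 in Fraction 2, 1.81, 1.58 and 1.23 in Fraction 3, and 2.56, 1.59 and 2.10 in DZ. Fraction 1 stood above all other libraries, and the remaining groups lay close together. Amd1 fell 2.35-fold in GC-PB against Fraction 1 (-0.92 ± 0.18, adjusted p = 0.000429). It rose in Fraction 1 over Fraction 2 (0.63 ± 0.18, adjusted p = 0.0363), a call that remained only when Fraction 1 replicate 3 was the library left out and that ranged up to adjusted p = 0.174 without Fraction 1 replicate 2.

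Amd1 has a near-identical copy, Amd2, in the mouse genome, and the way reads matching both were counted is not given in the sources used here, so the levels of both genes are uncertain. Amd2 averaged 1.26 ± 0.19 in GC-PB, 3.23 ± 0.501 in Fraction 1, 1.85 ± 0.294 in Fraction 2, 1.24 ± 0.158 in Fraction 3 and 1.44 ± 0.417 in DZ. Like Amd1 it was highest in Fraction 1, and it fell in GC-PB against Fraction 1 (-0.90 ± 0.19, adjusted p = 0.00053). In units of the most frequent value above 0 in each library, fractional values fell in the same libraries for both genes. Amd1 and Amd2 stood at 42.5 and 31.5 in Fraction 1 replicate 1, and at 10.5 and 5.5 in GC-PB replicate 3. Their levels may thus share reads and are not separate evidence.

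Spermidine synthase (Srm, chr4:148591503-148594993) stepped down in mean from Fraction 1 through Fraction 2 and Fraction 3 to DZ. Its levels were 12.8, 10.4 and 11.8 in GC-PB, 17.1, 13.8 and 14.8 in Fraction 1, 5.90, 5.30 and 5.03 in Fraction 2, 1.45, 1.75 and 3.17 in Fraction 3, and 2.72, 0.552 and 1.59 in DZ. No library of GC-PB, Fraction 1 or Fraction 2 overlapped another group, and Fraction 3 and DZ overlapped.

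Srm rose 2.81-fold in Fraction 1 over Fraction 2 (1.33 ± 0.24, adjusted p = 0.000958) and 3.34-fold in Fraction 2 over DZ (1.38 ± 0.24, adjusted p = 0.00123), and both calls remained when any library was left out. It rose 2.55-fold in Fraction 2 over Fraction 3 (1.07 ± 0.24, adjusted p = 0.0379). This last call remained only when Fraction 3 replicate 3 was the library left out, and it was lost with median ratios (adjusted p = 0.0545), a pseudocount of 0.5 (0.0538) or no filter (0.0684). Srm averaged 11.7 ± 1.19 in GC-PB and 15.2 ± 1.69 in Fraction 1, a change that limma did not call (-0.35 ± 0.24, adjusted p = 0.27), although the libraries did not overlap.

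Spermine synthase (Sms, chrX:157443855-157492287) was 0.233, 0.985 and 0.826 in GC-PB, 9.41, 8.92 and 11.3 in Fraction 1, 6.98, 5.65 and 7.33 in Fraction 2, 7.52, 5.78 and 8.10 in Fraction 3, and 6.09, 6.76 and 8.97 in DZ. The GC-PB libraries lay far below the other 12, and Fraction 2, Fraction 3 and DZ overlapped. Sms fell 14.5-fold in GC-PB against Fraction 1, the largest change among the 10 genes (-2.72 ± 0.19, adjusted p = 2.56e-10, and -3.74 as deposited). Leaving out any library gave changes of -2.85 to -2.51.

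The GC-PB signal for Sms was thin: in units of the most frequent value above 0 in each library, it amounted to 1, 5 and 4, against 80, 83 and 92 in Fraction 1. Both groups carried Xist but differed in donor genotype and tamoxifen, and the part of these in the Sms change was not tested. The Sms change in Fraction 1 over Fraction 2 was 0.51 ± 0.19 and was not called (adjusted p = 0.104), although Fraction 1 lay above Fraction 2 in every library.

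Sms averaged 0.681 ± 0.396 in GC-PB, 9.89 ± 1.27 in Fraction 1, 6.65 ± 0.887 in Fraction 2, 7.14 ± 1.21 in Fraction 3 and 7.27 ± 1.51 in DZ. In the same groups Myc averaged 1.45, 12.2, 4.46, 3.03 and 0.581. Whether Myc acts on Sms was not tested. In Fraction 3 against DZ Sms changed by -0.02 ± 0.19 and was not called, and Myc rose by 1.32 ± 0.23 (adjusted p = 0.00452).

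Antizyme 1 (Oaz1, chr10:80826656-80829290), the brake on ornithine decarboxylase, had the opposite order to Odc1 across the germinal centre groups. It was 27.0, 29.9 and 32.0 in GC-PB, 25.3, 26.3 and 24.7 in Fraction 1, 36.3, 32.8 and 30.9 in Fraction 2, 38.5, 38.8 and 36.8 in Fraction 3, and 42.8, 46.4 and 44.0 in DZ. The means stepped down from DZ through Fraction 3 and Fraction 2 to Fraction 1, and these 4 groups did not overlap.

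At equal totals Oaz1 fell in Fraction 1 against Fraction 2 (-0.37 ± 0.10, adjusted p = 0.0165), but as deposited it rose there by 1.05. That call was lost without 4 of the 6 libraries (Fraction 2 replicates 1 and 2, Fraction 1 replicates 1 and 3), where adjusted p reached 0.0973, and with median ratios (0.0911). Oaz1 also fell in Fraction 2 against DZ (-0.41 ± 0.10, adjusted p = 0.0177, and -0.07 as deposited). There the call was lost without DZ replicate 2 or 3 or Fraction 2 replicate 2 or 3, with adjusted p of up to 0.114. Oaz1 was 1.17-fold higher in mean in GC-PB than in Fraction 1 and not called (0.21 ± 0.10, adjusted p = 0.0925). The deposited scale called it lower in GC-PB (-0.47, adjusted p = 0.00471), and median ratios called it higher (0.50, adjusted p = 0.000248). It was also called higher without GC-PB replicate 1 (0.27, adjusted p = 0.0266), so its direction there depends on the scaling.

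Antizyme 2 (Oaz2), a second form with the same frameshift site, was scarce, at 0.118 to 1.24 over the 15 libraries. All of its neighbouring group means overlapped, and it was called in none of the 5 comparisons at equal totals, with adjusted p of 0.424 or more.

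The antizyme inhibitor (Azin1, chr15:38487427-38519266), a relative of ornithine decarboxylase that has lost its enzyme activity, was 9.55, 8.08 and 9.09 in GC-PB, 5.88, 5.48 and 4.92 in Fraction 1, 6.14, 7.15 and 8.75 in Fraction 2, 8.39, 8.23 and 10.9 in Fraction 3, and 8.17, 9.80 and 10.3 in DZ. Fraction 1 lay below every other library, and the other 4 groups overlapped. Azin1 rose 1.64-fold in GC-PB over Fraction 1 (0.62 ± 0.15, adjusted p = 0.00198), a call that remained when any library was left out. As deposited the same change was 0.01 (adjusted p = 0.961).

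Ratios of 2 genes within a library do not depend on the library total, and 4 of them were formed after the levels were seen. They compare groups and not the genes with each other, since the counting behind the signal is not given. The ratio of Odc1 to Oaz1 was 0.638, 0.507 and 0.484 in GC-PB, 0.972, 0.771 and 0.995 in Fraction 1, 0.395, 0.457 and 0.479 in Fraction 2, 0.237, 0.271 and 0.287 in Fraction 3, and 0.255, 0.201 and 0.194 in DZ. Fraction 1 was highest without overlap, and its mean was 2.06 times that of Fraction 2, which was 2.05 times that of DZ. The mean of GC-PB was 0.595 times that of Fraction 1.

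Azin1 to Oaz1 averaged 0.302 ± 0.0448 in GC-PB, against 0.213 ± 0.0171 in Fraction 1, 0.224 ± 0.0575 in Fraction 2, 0.242 ± 0.0472 in Fraction 3 and 0.212 ± 0.0211 in DZ. GC-PB did not overlap Fraction 1 or DZ in this ratio but overlapped Fraction 2 and Fraction 3. The 4 germinal centre groups overlapped each other. Each tested comparison without overlap had an exact two-sided permutation p of 0.1, the least that 3 values in each of 2 groups allow, and an adjusted p of 0.154 over the 20 ratio tests.

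**Figure D2:**
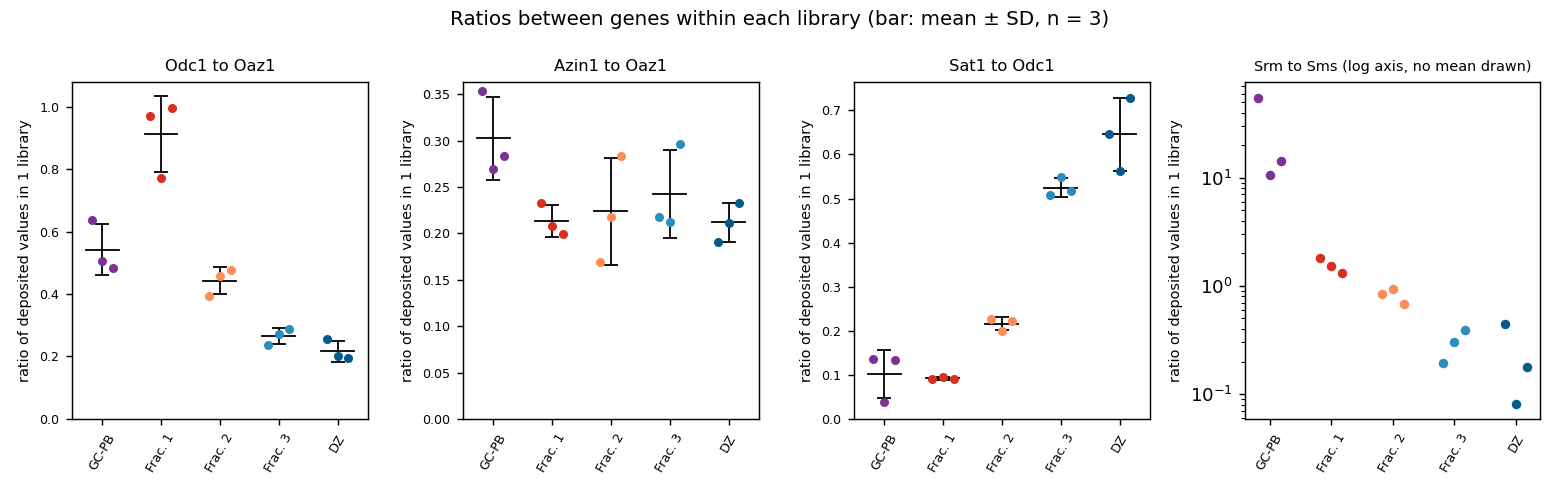
Ratio between the deposited values of 2 genes in each library (vertical axis, no unit, log axis for Srm to Sms) in GC-PB, Fractions 1 to 3 and DZ, with a point per library and bars for mean ± SD where drawn. Odc1 to Oaz1 peaks in Fraction 1 (mean 0.913) and Sat1 to Odc1 is highest in DZ (0.646), while Srm to Sms lies at 10.6 to 55 in GC-PB and at 1.81 or less elsewhere.

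Spermidine and spermine acetyltransferase (Sat1, chrX:155213132-155216449), which opens the way to breakdown and export, was 2.33, 0.591 and 2.07 in GC-PB, 2.24, 1.93 and 2.22 in Fraction 1, 3.25, 3.00 and 3.28 in Fraction 2, 4.63, 5.78 and 5.46 in Fraction 3, and 7.05, 5.24 and 6.22 in DZ. Its order among the germinal centre groups was the reverse of that of Odc1 and Srm, and Fraction 3 and DZ overlapped, as did GC-PB and Fraction 1. Sat1 fell in Fraction 2 against DZ (-0.77 ± 0.21, adjusted p = 0.0482), a call that was lost without any of the 6 libraries in turn (adjusted p of 0.0729 to 0.173). As deposited that change was -0.48 (adjusted p = 0.369).

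The Sat1 changes in Fraction 1 against Fraction 2 (-0.42 ± 0.21, adjusted p = 0.275) and in Fraction 2 against Fraction 3 (-0.59 ± 0.21, adjusted p = 0.267) were not called, although the libraries did not overlap, and the sign in Fraction 1 against Fraction 2 turned as deposited (0.71). Xist also differs in Fraction 1 against Fraction 2, and its part in the values of the X-linked genes Sat1 and Sms was not tested. Sat1 to Odc1 within a library averaged 0.102 ± 0.055 in GC-PB, 0.0921 ± 0.00272 in Fraction 1, 0.216 ± 0.0144 in Fraction 2, 0.525 ± 0.0222 in Fraction 3 and 0.646 ± 0.0829 in DZ. The 4 germinal centre groups did not overlap in this ratio, and GC-PB overlapped Fraction 1 alone.

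The ratio of Srm to Sms was 55, 10.6 and 14.3 in GC-PB, 1.81, 1.54 and 1.30 in Fraction 1, 0.845, 0.939 and 0.687 in Fraction 2, 0.192, 0.303 and 0.391 in Fraction 3, and 0.447, 0.0816 and 0.177 in DZ. GC-PB stood apart from all other libraries, and the value of 55 rests on the lowest Sms signal, that of GC-PB replicate 1. Fraction 1 lay above Fraction 2 and Fraction 2 above Fraction 3, while Fraction 3 and DZ overlapped.

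The hypusine enzymes were low and called in none of the comparisons at equal totals. Deoxyhypusine synthase (Dhps, chr8:85071757-85075162), which transfers the aminobutyl group of spermidine, was 0.466, 0.394 and 1.03 in GC-PB, 0.824, 1.40 and 1.60 in Fraction 1, 0.843, 0.692 and 1.20 in Fraction 2, 0.434, 0.526 and 0.352 in Fraction 3, and 0.480, 0.552 and 0.434 in DZ. Fraction 2 lay above Fraction 3 and DZ in every library, and the changes of 0.41 ± 0.20 and 0.35 ± 0.20 had adjusted p of 0.47 and 0.454.

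In GC-PB against Fraction 1 the Dhps change was -0.48 ± 0.20 (adjusted p = 0.0655). It was called without Fraction 1 replicate 1 (-0.64, adjusted p = 0.031) or GC-PB replicate 3 (-0.65, adjusted p = 0.0204), and with Rn45s kept in the totals (adjusted p = 0.0484).

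Deoxyhypusine hydroxylase (Dohh, chr10:81384428-81388352), which completes hypusine, was 1.16, 1.18 and 1.03 in GC-PB, 2.35, 2.47 and 1.35 in Fraction 1, 1.20, 1.5 and 0.657 in Fraction 2, 0.868, 2.10 and 0.880 in Fraction 3, and 1.60, 0.966 and 1.74 in DZ. Groups next to each other in mean all overlapped. The changes were -0.50 ± 0.24 in GC-PB against Fraction 1 (adjusted p = 0.108) and 0.53 ± 0.24 in Fraction 1 against Fraction 2 (adjusted p = 0.201).

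**Figure D3:**
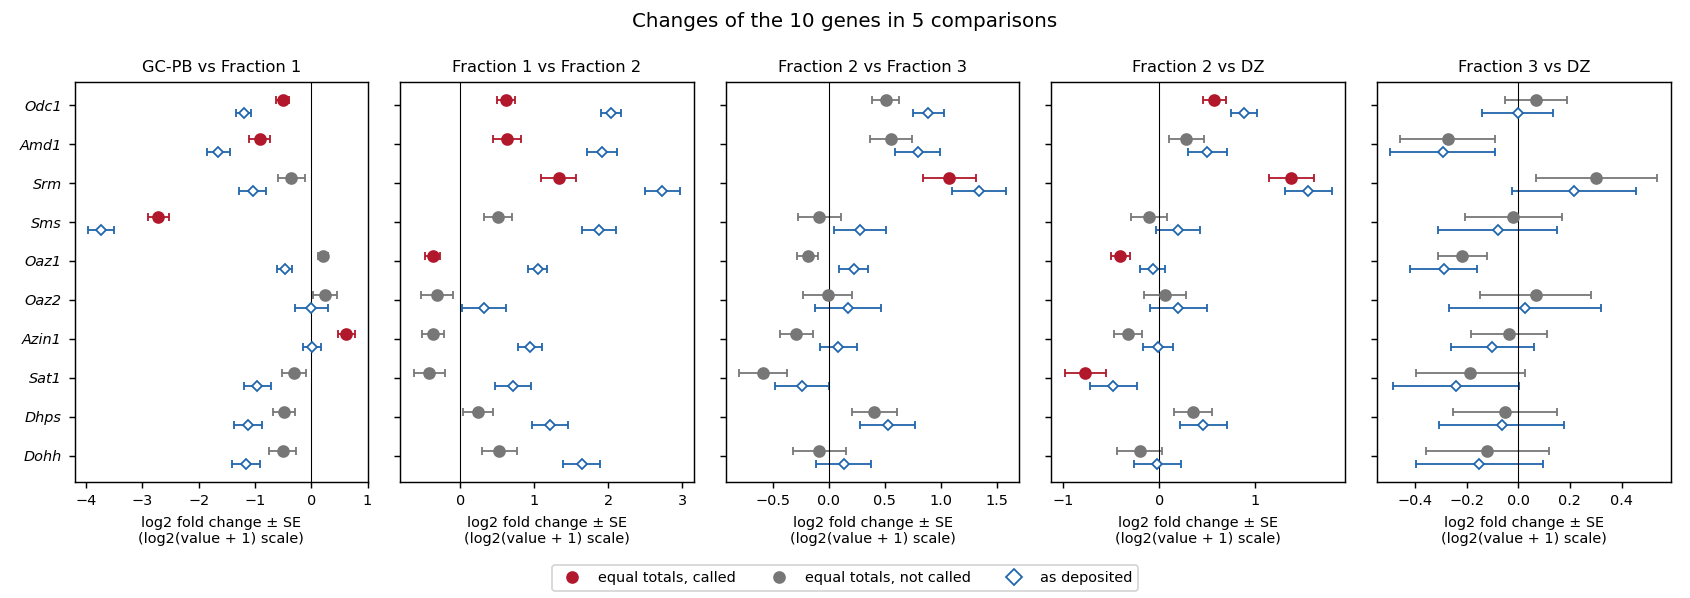
Log2 fold change ± SE of the 10 genes (rows) in 5 comparisons (panels, each with its own horizontal scale), at equal library totals (circles, red where called) and as deposited (open diamonds). The Sms change in GC-PB against Fraction 1 (-2.72) is the largest, and the diamonds in Fraction 1 against Fraction 2 all lie to the right of the circles, so that Oaz1 changes side (-0.37 against 1.05).

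The protein that hypusine is built on, eIF5A (Eif5a, chr11:69916714-69921958), was called in 4 of the 5 comparisons. Eif5a was 22.1, 29.6 and 27.5 in GC-PB, 101, 89.4 and 95.7 in Fraction 1, 55.4, 51.9 and 56.7 in Fraction 2, 36.9, 33.2 and 33.7 in Fraction 3, and 33.6, 31.9 and 31.8 in DZ. Fraction 1 was highest and Fraction 2 next, without overlap, and GC-PB lay below all germinal centre libraries. Eif5a fell 3.61-fold in GC-PB against Fraction 1 (-1.82 ± 0.10, adjusted p = 9.83e-12). It rose in Fraction 1 over Fraction 2 (0.79 ± 0.10, adjusted p = 4.36e-05), in Fraction 2 over Fraction 3 (0.64 ± 0.10, adjusted p = 0.00378) and in Fraction 2 over DZ (0.73 ± 0.10, adjusted p = 0.000142). Processed copies of Eif5a lie elsewhere in the genome, and how reads matching them were counted is not given in the sources used here, so its level is uncertain.

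The wider list held 46 genes around the pathway (hypusine carriers, paralogs, ornithine supply, polyamine oxidation, S-adenosylmethionine supply, transport, decay of ornithine decarboxylase, and Myc with its partners). Of these, 45 are in the table and 30 could be tested. In GC-PB against Fraction 1, 5 of the 30 were higher and 8 lower (36.3% of all tested genes called), and their median change was -0.13, against -0.06 over all. In Fraction 1 against Fraction 2, 5 were higher and 1 lower (9.03% called), with a median of 0.06, against -0.04 over all. In Fraction 2 against Fraction 3 (0.688% called) and in Fraction 3 against DZ (1.05% called) 1 was higher and 0 lower each, with medians of 0.13 and -0.0027, against 0.00 over all in both. In Fraction 2 against DZ, 5 were higher and 0 lower (3.5% called), with a median of 0.17, against 0.01 over all. As deposited, every call of this list described below kept its sign, and those of Mat2b in GC-PB against Fraction 1 (adjusted p = 0.567) and Mtr in Fraction 2 against DZ (0.0623) were lost. With median ratios every one kept its sign too, and those of Mtr (adjusted p = 0.058) and Slc3a2 (0.056) in Fraction 2 against DZ were lost.

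Among genes of S-adenosylmethionine supply, which feeds the decarboxylase Amd1, Mat2a, the catalytic subunit of methionine adenosyltransferase, was 3.49, 4.14 and 3.30 in GC-PB, 14.0, 13.4 and 13.5 in Fraction 1, 7.46, 8.53 and 7.55 in Fraction 2, 6.80, 6.66 and 4.23 in Fraction 3, and 5.13, 5.11 and 3.33 in DZ. Fraction 1 was far above the rest. Mat2a fell in GC-PB against Fraction 1 (-1.66 ± 0.17, adjusted p = 7.34e-08), and it rose in Fraction 1 over Fraction 2 (0.73 ± 0.17, adjusted p = 0.00812) and in Fraction 2 over DZ (0.70 ± 0.17, adjusted p = 0.0207).

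Its regulatory subunit Mat2b rose in GC-PB over Fraction 1 (0.62 ± 0.20, adjusted p = 0.0226), and by 0.16 as deposited. Ahcy, which clears S-adenosylhomocysteine, averaged 2.75 ± 1.18 in GC-PB and 8.93 ± 0.462 in Fraction 1 and fell (-1.46 ± 0.24, adjusted p = 4.44e-05). The methionine salvage gene Enoph1 also fell in GC-PB against Fraction 1 (-1.15 ± 0.23, adjusted p = 0.000468), where its GC-PB libraries held only 0 to 4 times the most frequent value of their library. Got1, an aminotransferase, rose in Fraction 1 over Fraction 2 (0.96 ± 0.27, adjusted p = 0.0279), at 0 to 7 times that value in Fraction 2. Mtr, methionine synthase, rose in Fraction 2 over DZ (0.66 ± 0.17, adjusted p = 0.0335), at 0 to 2 times that value in DZ. No other gene of this group was called at equal totals in the 5 comparisons.

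Of the transport genes, Slc3a2, the heavy chain of several amino acid exchangers, rose in plasmablasts, where Odc1 and Amd1 fell. It was 18.9, 11.03 and 14.97 in GC-PB, 6.12, 5.71 and 6.16 in Fraction 1, 3.91, 2.65 and 3.12 in Fraction 2, 3.35, 2.01 and 2.51 in Fraction 3, and 1.76, 1.59 and 1.47 in DZ. GC-PB was highest and Fraction 1 next, without overlap. Slc3a2 rose in GC-PB over Fraction 1 (1.16 ± 0.18, adjusted p = 3.01e-05), in Fraction 1 over Fraction 2 (0.74 ± 0.18, adjusted p = 0.0143) and in Fraction 2 over DZ (0.69 ± 0.18, adjusted p = 0.0398). Slc7a1, a carrier of arginine and ornithine, averaged 1.61 ± 1.2 in GC-PB and 4.08 ± 0.735 in Fraction 1 and fell (-1.06 ± 0.25, adjusted p = 0.00214).

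Myc, a transcription factor that binds Odc1 as a partner of Max, was 2.33, 0.985 and 1.03 in GC-PB, 11.1, 10.7 and 14.8 in Fraction 1, 5.18, 4.27 and 3.94 in Fraction 2, 1.88, 2.98 and 4.23 in Fraction 3, and 0.480, 0.828 and 0.434 in DZ. Fraction 1 lay above all others and DZ below all others. Myc fell in GC-PB against Fraction 1 (-2.46 ± 0.23, adjusted p = 1.99e-08) and rose in Fraction 1 over Fraction 2 (1.27 ± 0.23, adjusted p = 0.00107) and in Fraction 2 over DZ (1.79 ± 0.23, adjusted p = 4.32e-05).

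The means of Myc, Odc1 and Srm fell in the same order over the germinal centre groups. That order ran from Fraction 1 through Fraction 2 and Fraction 3 to DZ. Amd1 and Sms did not keep it, and with GC-PB added the order of Odc1 and Srm was not that of Myc. GC-PB averaged 1.45 for Myc, below the 4.46 of Fraction 2, but 15.96 for Odc1 and 11.7 for Srm, above the 14.7 and 5.41 of Fraction 2, and GC-PB was not tested against Fraction 2. Those groups also differ in donor genotype, tamoxifen and Xist. Between Fraction 3 and DZ Myc was called (0.00452, given above), while Odc1 changed by 0.07 ± 0.12 and Srm by 0.30 ± 0.24, with adjusted p of 0.918 and 0.736. Myc in DZ stood at only 3 to 6 times the most frequent value of its library. Whether Myc acts on Odc1 or Srm in these cells was not tested. Max was 0.233, 0.788 and 0.413 in GC-PB, and it averaged 3.81 to 4.15 in the other 4 groups. Max was low in all plasmablast libraries and in no other, and fell in GC-PB against Fraction 1 (-1.80 ± 0.18, adjusted p = 7.8e-08). Its GC-PB signal was thin, at 1, 4 and 2 times the most frequent value of the library.

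Repressors that compete with Myc for Max, Mxd4, Mxd1 and Mxi1, rose in GC-PB over Fraction 1. Mxd4 was 3.73, 5.32 and 3.10 in GC-PB, against 0.235, 0.107 and 0 in Fraction 1 (2.16 ± 0.22, adjusted p = 1.07e-07). Mxd1 averaged 0.968 ± 0.349 in GC-PB against 0.041 ± 0.0711 in Fraction 1 (0.91 ± 0.13, adjusted p = 5.76e-06), and Mxi1 averaged 0.693 ± 0.198 in GC-PB against 0.159 ± 0.179 in Fraction 1 (0.55 ± 0.13, adjusted p = 0.00168). Mxd3, a further member of that family, fell in Fraction 1 against Fraction 2 (-1.18 ± 0.28, adjusted p = 0.0091), at means of 0.0358 in Fraction 1 and 1.37 in Fraction 2. Mxd1, Mxi1 and Mxd3 rest on few multiples of the most frequent value of a library, with 3 to 5.5 for Mxd1 and 2 to 4 for Mxi1 in GC-PB, and at most 1 for Mxd1, 3 for Mxi1 and 1 for Mxd3 in Fraction 1. Mxd4 stood at 0 to 2 such multiples in Fraction 1. The proliferation gene sum given above was also lower in Fraction 1 than in Fraction 2 and lower again in GC-PB. Top2a, Ccnb1, Cdk1, Mcm5 and Pcna fell in mean at both steps. Mki67 averaged more in GC-PB (13.2) than in Fraction 1 (9.72), and Mcm2 more in Fraction 1 (9.34) than in Fraction 2 (8.69). The part of proliferation in these results was not tested.

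**Figure D4:**
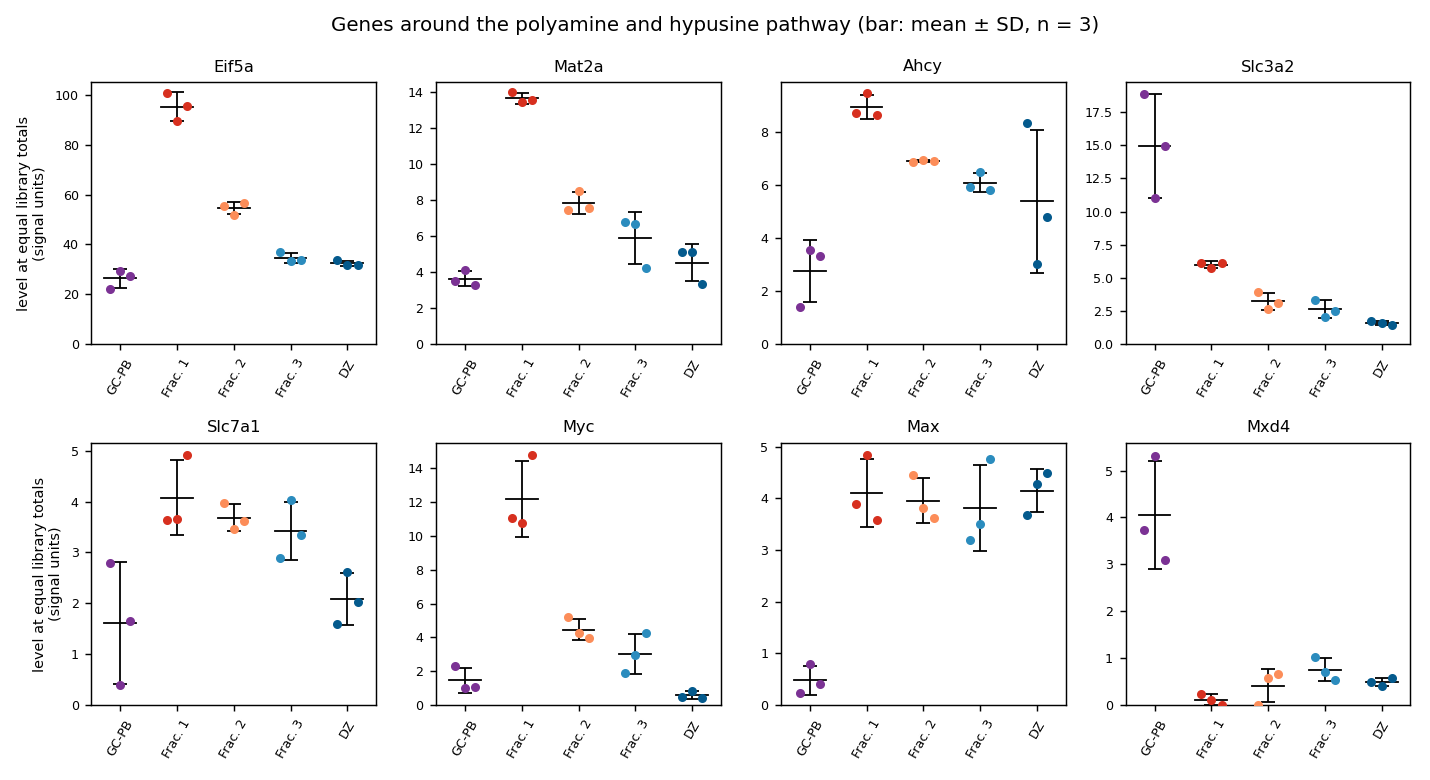
Level at equal library totals (vertical axis, signal units from 0) of 8 genes around the pathway in GC-PB, Fractions 1 to 3 and DZ, with a point per library and bars for mean ± SD over 3 libraries. Eif5a, Mat2a and Myc peak in Fraction 1 (means 95.3, 13.7 and 12.2), Max is near 0 only in GC-PB (0.478), and Slc3a2 and Mxd4 are highest in GC-PB (14.96 and 4.05).

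Genes whose pattern was most like that of each of the 10 were found by Pearson r over the 15 libraries on the log2 scale, as a description, since the libraries form 5 groups and share scaling. Odc1 was closest to Srm (r = 0.936), followed by Mrpl17 (0.936), of the mitochondrial ribosome, and Gm11974 (0.931). Srm was closest to Ccnd2 (0.963), the cyclin D2 gene, Cycs (0.962), cytochrome c, and Ppa1 (0.938), a pyrophosphatase. The nearest genes to Amd1 were Nol6, Zfp593 and Shmt2 (0.922, 0.922 and 0.921), of which Shmt2 is the mitochondrial serine hydroxymethyltransferase.

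Sms, low in plasmablasts alone, was closest to Hnrnpa0 (0.984), Srsf3 (0.976) and H2afz (0.976), which code for 2 RNA-binding proteins and a histone variant. Oaz1 was closest to Vim (0.948), Cd79b (0.944) and 8430410A17Rik (0.944), and Cd79b, a chain of the B cell receptor, had its lowest mean in Fraction 1 (22.1) and its highest in DZ (61.1). Sat1 was closest to Il17ra, Cd2ap and Ccm2 (0.943, 0.934 and 0.934), and Azin1 to Cript, Ddx26b and Samhd1 (0.886, 0.867 and 0.867). Nearest to the scarce genes were Tspan4, Ehd1 and Rpp40 for Dhps (0.915, 0.889 and 0.876), Rdh14, Hadhb and Stxbp3a for Oaz2 (0.796, 0.787 and 0.785), and Scd3, Mlst8 and Ado for Dohh (0.751, 0.749 and 0.744).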

How the data were processed

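Per the labels, ERCC spike-in RNA was added in equal amount to each tube and cDNA carried molecular barcodes; the submitters' processing notes name TopHat2 and mm10. The deposited values are a signal per gene and library made by the authors; the aligner version, the counting and any scaling to the spike-ins are not given in the sources used here. Between 91.0% and 92.6% of values above 0 were whole multiples of the most frequent value of their library (tolerance 0.02), and no count test was run.

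Libraries were scaled to equal totals (38594, the median total without Rn45s). The fit used R 4.3.3 and limma 3.58.1 with its trend option, on log2(level + 1) of the 11190 genes above 0 in at least 3 of 15 libraries, with 5 group means in 1 fit, and p was adjusted by Benjamini-Hochberg over all of them. The code was tested on simulated data. Totals and ratios were compared by exact two-sided permutation tests. Figures were made with matplotlib 3.10.9 under Python 3.11.15. Positions are from GENCODE M21.

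Alternatives were the deposited scale, median ratios, Rn45s kept, pseudocounts of 0.5 and 2, no filter or a filter of 9 libraries, a replicate block and leaving out each library. Scaling to the mean total and the ratios were added after the data were seen. The 10 genes and all lists were chosen with earlier results of these data known. Genes named are the 10, called genes of the wider list and the 3 genes most like each of the 10, plus marker genes and Rn45s as checks. Replicate numbers were not used to pair samples in the main fit. The correlation of same-numbered deviations was -0.0291 to 0.0321 over 15 pairs, which share libraries. Sampling noise in scarce genes can also hold such values near 0, so they cannot tell whether same-numbered samples were paired. Chi-square per degree of freedom between replicates was 1.42 to 2.77 in GC-PB and 1.07 to 1.38 in the other groups. It took each rounded multiple of the most frequent value as 1 count, so that sampling noise alone would give about 1. No p-value was computed for it.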

Additional observations from a re-analysis of the deposited data

How the results depend on the processing

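Values as deposited moved most. Genes called, out of 10, became 8 in GC-PB against Fraction 1, 9 in Fraction 1 against Fraction 2, 3 in Fraction 2 against Fraction 3 and 2 in Fraction 2 against DZ, and over all genes 6380, 6183 and 301 in the first 3 of these and 27 in Fraction 3 against DZ. Of 50 changes, 13 turned sign: Oaz1 (-0.47) and Oaz2 (-0.0011) in GC-PB against Fraction 1; Oaz1 (1.05), Oaz2 (0.32), Azin1 (0.94) and Sat1 (0.71) in Fraction 1 against Fraction 2; Sms (0.28), Oaz1 (0.22), Oaz2 (0.17), Azin1 (0.086) and Dohh (0.13) in Fraction 2 against Fraction 3; Odc1 (-0.0027) in Fraction 3 against DZ; and Sms (0.20) in Fraction 2 against DZ. With Rn45s kept, Oaz2 (0.0027) in Fraction 2 against Fraction 3 and Sms (0.00038) in Fraction 3 against DZ turned.

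Of the 10 genes, 0 were called in Fraction 2 against Fraction 3 with median ratios (44 of all genes), a pseudocount of 0.5 or no filter, and 2 with Rn45s kept, a pseudocount of 2 or the filter of 9 libraries. The replicate block changed no call among the 50, and left 40 of all genes called in Fraction 2 against Fraction 3, against 77; it is a fit on a shared number only. The causes were not tested.

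Leaving out 1 library gave 4 to 5 of the 10 genes in GC-PB against Fraction 1, 2 to 3 in Fraction 1 against Fraction 2, 0 to 1 in Fraction 2 against Fraction 3, 0 in Fraction 3 against DZ and 1 to 3 in Fraction 2 against DZ, and 3497 to 3827, 551 to 683, 17 to 39, 40 to 96 and 212 to 276 of all genes, with fewer libraries in each fit. Changes that turned sign ranged, in GC-PB against Fraction 1, from -0.50 to 0.031 for Sat1. In Fraction 2 against Fraction 3 they ranged from -0.21 to 0.015 for Sms, -0.097 to 0.064 for Oaz2 and -0.21 to 0.16 for Dohh, and in Fraction 2 against DZ from -0.21 to 0.039 for Sms and -0.030 to 0.13 for Oaz2. In Fraction 3 against DZ they ranged from -0.0041 to 0.16 for Odc1, -0.031 to 0.60 for Srm, -0.12 to 0.12 for Sms, -0.16 to 0.029 for Azin1 and -0.36 to 0.0034 for Dohh. None of these was called at equal totals. Low signal limits Oaz2, Dhps, Dohh, Mxd1, Mxi1, Mxd3, Enoph1, Got1 and Mtr. It also limits Sms and Max in GC-PB, Mxd4 in Fraction 1 and Myc in DZ.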
